A study of Mus musculus with 36 samples.

Results

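Lewis lung carcinoma (LLC) tumours were ranked by the level of 5 interferon-induced transcripts, and the 9 highest were set against the 9 lowest. The ranking used 28 of the 30 tumours of the study. The other 2 tumour arrays, young irradiated replicates 6 and 8, were too dim, with a 75th percentile of unnormalized signal at or under 110 (91.6 and 102). Each tumour was given a score, the mean log2 value in the authors' normalized table of 5 interferon-induced genes, Oasl2, Rsad2, Ifit2, Oas2 and Ifi27l2a, with values under 64 set to 64. The 9 highest scores made the interferon-high group, the 9 lowest the interferon-low group, and 10 tumours lay between them.

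The LLC line, from a mouse lung tumour, is grown in host mice. The hosts were male, middle-aged or young, and had either received 0.2 Gy of 56Fe ions in each of 5 exposures or none. The high group held 1 middle-aged irradiated tumour, 3 middle-aged unirradiated, 3 young irradiated and 2 young unirradiated tumours. The low group held 1 middle-aged irradiated tumour, 2 middle-aged unirradiated, 1 young irradiated and 5 young unirradiated tumours. Strain, ages in weeks, the number of animals behind the tumours and the chip or batch of each tumour are not given in the sources used here, so no comparison within batches was possible and p-values measure only the spread between these samples. RNA came from small pieces of whole tumour, so host cells in the piece may contribute to any value. LLC cells, used as technical chip controls, were run on 6 more arrays.

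Interferons are cytokines made when a cell senses foreign or misplaced nucleic acid, or, for interferon gamma, by activated T and natural killer cells. Type I interferons act through the receptor chains Ifnar1 and Ifnar2 and a transcription factor complex that holds Stat2 and Irf9 and binds an element called the interferon-stimulated response element (ISRE) in the promoters of antiviral genes. Interferon gamma acts through Ifngr1 and Ifngr2 and the gamma-activated site (GAS) of promoters, and induces guanylate-binding proteins, antigen presentation genes and T cell attracting chemokines. Many genes respond to both.

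The score ran without a gap through the ranks. It was between 9.69 and 10.43 in the high tumours (mean 9.98 ± 0.24, SD, n = 9) and between 8.81 and 9.33 in the low tumours (mean 9.16 ± 0.16, SD, n = 9), a difference of 0.82 that the choice itself produced. At the upper edge, middle-aged unirradiated replicate 3 at rank 9 scored 9.692 and young unirradiated replicate 5, just outside, scored 9.691. At the lower edge, young unirradiated replicate 10 at rank 20 scored 9.328 and middle-aged irradiated replicate 1, just outside, scored 9.338. The cell arrays scored between 7.51 and 7.66, below every tumour.

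**Figure D1:**
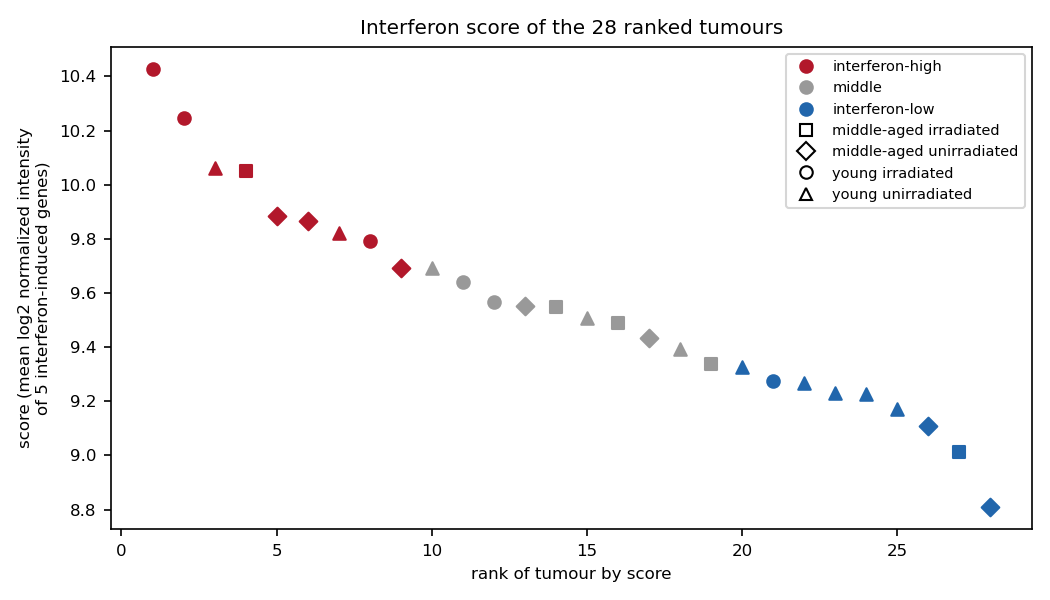
Score of each of the 28 ranked tumours against its rank. The score is the mean log2 normalized intensity of 5 interferon-induced genes. Red points are the 9 high tumours, grey points the 10 middle tumours and blue points the 9 low tumours, and symbols mark the study group. Ranks 9 and 10 nearly tie at 9.692 and 9.691.

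The 5 score genes did not carry the score equally, and their values are given as a description because they chose the tumours. Values from here on are on the log2 scale of the background-corrected, quantile-normalized intensities unless another scale is named. Oas2, an oligoadenylate synthetase, ran from 8.49 to 9.99 in the high tumours and from 7.01 to 8.27 in the low tumours, which do not overlap. Rsad2, which encodes the antiviral enzyme viperin, ran from 9.80 to 11.12 in the high tumours and from 9.09 to 11.06 in the low tumours, which overlap almost fully. Correlations over the 28 tumours were taken on the authors' log2 values that made the score. On these, Rsad2 correlated with the other 4 score genes at between 0.21 and 0.40, while Oasl2 and Oas2 correlated at 0.87. Young unirradiated replicate 8 had the highest Rsad2 of the high tumours, 11.12. Ifit2 was detected on 6 of the 6 cell arrays and Oas2 on 1, and the other 3 score genes on 0.

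The high and low arrays were first compared for brightness and for the number of probes detected. The 75th percentile of unnormalized signal ran from 178 to 1123 (median 268) in the high tumours and from 160 to 334 (median 253) in the low tumours. The mean difference was 0.66 on the log2 scale, with a two-sided exact permutation p of 0.0553 over 48620 splits. Both arrays above 800 were in the high group, at 1123 for young irradiated replicate 2 and 863 for middle-aged unirradiated replicate 1. Between 17329 and 19216 probes were detected on the high arrays and between 18183 and 19464 on the low arrays (exact permutation p = 0.331).

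Outside the score genes, 19 of 10902 tested genes (0.174%) were higher in the interferon-high tumours at an adjusted p under 0.05 (limma, Benjamini-Hochberg over all genes tested), and 0 were lower. At an unadjusted p under 0.05, 450 genes were higher (4.13%) and 384 lower (3.52%), 834 in all (7.65%). The tumours were grouped by values measured on the same arrays, so these p-values describe genes that go with the score, not the effect of a treatment. In these whole pieces, fewer cells of a type and less RNA per cell cannot be told apart. The 19 genes were Phf11a, Gvin1, Irf7, Mx2, Oas1g, Gm4951, Irgm2, Irf9, Phf11d, Apol9a, Cd69, Milr1, Psmb9, Ifit3, Apol9b, Cmpk2, Dhx58, Gbp3 and Nlrc5. Their log2 differences ran from 0.66 for Irf9 to 1.59 for Gm4951, and their adjusted p from 0.0127 to 0.0416. Of the 19, 13 belong to 11 lists of genes of interferon signalling and response, and Phf11a, Gm4951, Apol9a, Cd69, Milr1 and Apol9b belong to none.

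The direction of these 19 genes held in every alternative fit that was run, but the number passing the test did not. It was 0 with the study group as a covariate (smallest adjusted p 0.0909), 0 with array brightness as a covariate (0.156) and 1, Phf11a, without the 2 brightest arrays, against 19 in the fit reported here. The median difference of the 19 genes was 1.06 in the fit reported here. It was 1.03 with the study group and 0.94 with array brightness as a covariate. All 19 had an unadjusted p under 0.05 in both covariate fits, where 2.33% and 2.12% of all genes were higher at that level. The 19 had passed on largely the same tumours, so their direction and p in the alternative fits are a description. Leaving out 1 tumour gave between 6 and 64 genes. It gave 64 without young unirradiated replicate 8, and 6 without middle-aged unirradiated replicate 6. It gave 7 without young irradiated replicate 1 or middle-aged irradiated replicate 3, and 8 without middle-aged unirradiated replicate 4. It gave 10 without middle-aged unirradiated replicate 3, 11 without young irradiated replicate 2, and 12 without middle-aged unirradiated replicate 1, young unirradiated replicate 7 or young unirradiated replicate 1.

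**Figure D2:**
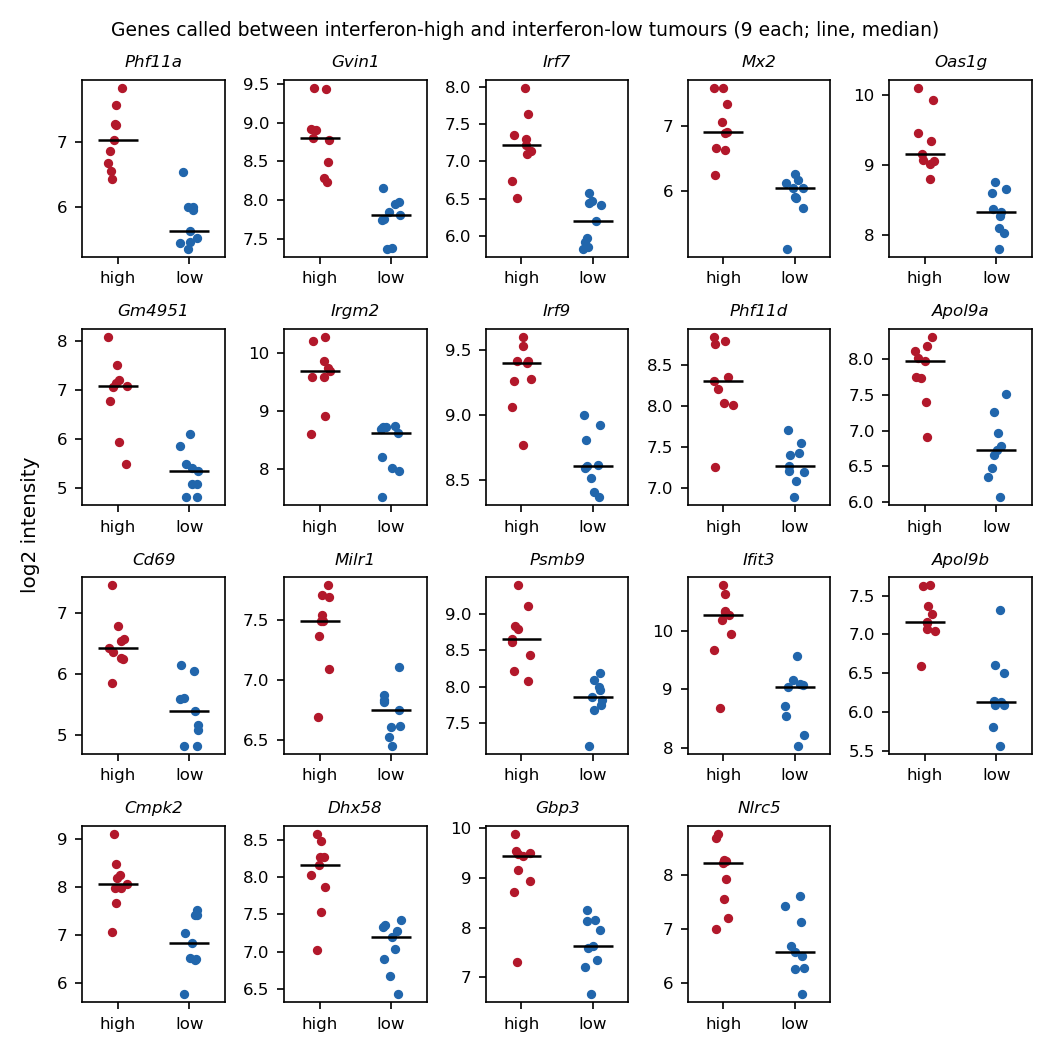
Log2 intensity of the 19 genes that passed the test, 1 panel per gene, with 9 interferon-high tumours (red) left of 9 interferon-low tumours (blue) and a line at each median. Vertical axes differ between panels. The groups do not overlap for Gvin1 and Oas1g, and in Gbp3 the lowest high tumour, at 7.31, lies apart from the next at 8.71.

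The promoters of the genes that passed are shown because an interferon element can be read in them directly. RefSeq promoter windows (GRCm38.p6, 250 bases before to 50 after the annotated start, gene strand) were at hand for 13 of the 19 genes. An ISRE core, spelled GAAA, then any 2 bases, then GAAA, was searched on both strands, and overlapping matches were counted apart. Capitals mark every match. A match on the opposite strand reads as TTTC, any 2 bases, TTTC.
Phf11a: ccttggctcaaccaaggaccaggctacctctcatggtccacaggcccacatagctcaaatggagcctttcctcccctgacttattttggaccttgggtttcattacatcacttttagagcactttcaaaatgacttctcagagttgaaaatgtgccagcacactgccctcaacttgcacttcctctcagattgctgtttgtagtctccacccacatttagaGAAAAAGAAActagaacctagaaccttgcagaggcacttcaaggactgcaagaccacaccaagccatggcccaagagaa
Oas1g: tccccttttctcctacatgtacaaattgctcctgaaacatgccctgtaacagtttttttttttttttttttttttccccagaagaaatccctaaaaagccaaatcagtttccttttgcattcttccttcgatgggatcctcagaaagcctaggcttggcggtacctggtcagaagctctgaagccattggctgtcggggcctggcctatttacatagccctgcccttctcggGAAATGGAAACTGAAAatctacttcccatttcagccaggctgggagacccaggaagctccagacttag
Irgm2: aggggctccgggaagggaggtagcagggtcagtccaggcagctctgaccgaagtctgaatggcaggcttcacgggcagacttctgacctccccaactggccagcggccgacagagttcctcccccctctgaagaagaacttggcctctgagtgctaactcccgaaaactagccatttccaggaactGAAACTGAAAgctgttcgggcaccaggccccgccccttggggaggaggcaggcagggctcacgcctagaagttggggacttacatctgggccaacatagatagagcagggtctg
Ifit3: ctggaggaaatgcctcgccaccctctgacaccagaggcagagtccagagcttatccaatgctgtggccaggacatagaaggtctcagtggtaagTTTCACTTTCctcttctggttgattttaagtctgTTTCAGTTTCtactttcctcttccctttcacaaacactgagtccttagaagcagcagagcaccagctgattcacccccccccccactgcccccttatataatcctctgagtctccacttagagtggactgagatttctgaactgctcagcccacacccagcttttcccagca
Gbp3: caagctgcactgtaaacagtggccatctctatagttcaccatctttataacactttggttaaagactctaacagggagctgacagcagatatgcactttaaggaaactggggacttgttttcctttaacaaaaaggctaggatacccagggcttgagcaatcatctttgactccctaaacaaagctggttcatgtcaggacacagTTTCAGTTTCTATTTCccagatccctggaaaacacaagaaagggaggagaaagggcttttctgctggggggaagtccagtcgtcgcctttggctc
The Phf11a window is chr14:59297473-59297772 (minus strand), with 1 match that begins at position -29 from the annotated start. The Oas1g window is chr5:120887564-120887863 (minus strand), with 2 overlapping matches from -18. The Irgm2 window is chr11:58214727-58215026 (plus strand), with 1 match from -64. The Ifit3 window is chr19:34583279-34583578 (plus strand), with 2 separate matches on the opposite strand from -156 and -122. The Gbp3 window is chr3:142559794-142560093 (plus strand), with 2 overlapping matches on the opposite strand from -45. A downstream Gbp3 window held none.

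The ISRE letters stood in the windows of 7 of 13 genes that passed and have a window (53.8%), against 3.78% of the 8812 tested genes with a window and 3.99% of 27025 genes in all. The other 2 genes with a match were Apol9a and Apol9b. Their windows hold the same matched stretch with the same bases around it, so the count of 7 takes in near-identical sequence for these 2 genes. Irf7, Irf9, Phf11d, Milr1, Psmb9 and Cmpk2 had no match, which says only that these letters are not in this window. A GAS core, TTCNNNGAA, which reads the same on both strands, stood in 1 of the 13 genes (7.69%), Irgm2, against 8.45% of the tested genes. A match is a description of letters, not a measured binding site. Among the score genes with a window, Rsad2 had 1 ISRE match and Oasl2 and Ifit2 had none.

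The antiviral effectors block viral replication inside the infected cell. Of 25 tested members 5 rose and 20 did not pass. The median log2 difference was 0.57 against -0.01 over all genes tested, and 23 were above 0, against 48.6% of all genes. Oas1g, an oligoadenylate synthetase whose product activates RNase L, had a lowest, median and highest log2 intensity of 8.81, 9.16 and 10.10 in the high tumours and 7.81, 8.34 and 8.76 in the low tumours. Every high tumour was above every low tumour. The difference was 1.00 (SE 0.169, adjusted p = 0.0173).

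Mx2, a dynamin-like antiviral GTPase, had 6.25, 6.90 and 7.58 in the high tumours and 5.13, 6.05 and 6.27 in the low tumours, a difference of 1.06 (SE 0.177, adjusted p = 0.0173). Here 8 of the 9 high tumours were above every low one. Ifit3, an interferon-induced tetratricopeptide repeat protein with the 2 ISRE matches printed above, had 8.68, 10.27 and 10.78 in the high tumours and 8.03, 9.05 and 9.57 in the low tumours (difference 1.27, SE 0.242, adjusted p = 0.0306). A single high tumour, young unirradiated replicate 8, lay inside the low range. Cmpk2, a mitochondrial nucleotide kinase, had 7.08, 8.07 and 9.11 in the high tumours and 5.77, 6.84 and 7.53 in the low tumours (difference 1.25, SE 0.245, adjusted p = 0.0313). Phf11d, a PHD finger protein, had 7.25, 8.30 and 8.84 in the high tumours and 6.88, 7.27 and 7.71 in the low tumours (difference 0.98, SE 0.176, adjusted p = 0.0205). In Cmpk2 and Phf11d, too, 8 of 9 high tumours were above every low one. Isg15 and Mx1 were chosen after their values were seen. Isg15, a ubiquitin-like modifier, differed by 1.31 without passing (adjusted p = 0.156), and Mx1 by 0.99 (adjusted p = 0.0541).

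The guanylate-binding proteins and IRG GTPases, which attack the membranes around intracellular microbes, had the largest median of the 11 interferon lists, 1.13. Of 8 tested members 3 rose and 5 did not pass. Gvin1, a very large interferon-inducible GTPase, had 8.23, 8.80 and 9.45 in the high tumours and 7.37, 7.80 and 8.16 in the low tumours (difference 1.03, SE 0.162, adjusted p = 0.0162). Gvin1 and Oas1g were the 2 of 10902 genes (0.0183%) whose high tumours all exceeded the low ones, and in 0 genes did all lie below them.

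Irgm2, a regulatory member of the IRG family, had 8.61, 9.69 and 10.29 in the high tumours and 7.51, 8.62 and 8.75 in the low tumours (difference 1.26, SE 0.218, adjusted p = 0.0173). Gbp3 had 7.31, 9.44 and 9.89 in the high tumours and 6.66, 7.64 and 8.35 in the low tumours (difference 1.44, SE 0.282, adjusted p = 0.0313). In both genes 8 of 9 high tumours were above every low one. Igtp, an effector of the IRG family, differed by 1.28 and did not pass (SE 0.272, adjusted p = 0.0606).

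Of the interferon transcription factors, 2 of 10 tested members rose, and both act in the type I pathway. Irf7, which drives further type I interferon transcription, had 6.51, 7.22 and 7.98 in the high tumours and 5.83, 6.21 and 6.58 in the low tumours (difference 1.03, SE 0.167, adjusted p = 0.0167). Irf9, the DNA-binding subunit of the complex with Stat2, had 8.76, 9.40 and 9.60 in the high tumours and 8.36, 8.60 and 9.0 in the low tumours (difference 0.66, SE 0.117, adjusted p = 0.0202). Stat2 itself differed by 0.68 and did not pass (adjusted p = 0.234), and Irf5 by 0.43 (adjusted p = 0.421). The median of the list was 0.39.

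In MHC class I presentation an immunoproteasome subunit and the transactivator rose. Of 16 tested members 2 rose, 14 did not pass and 16 were above 0 (48.6% of all genes), with a median of 0.44. Nlrc5, the transactivator of class I genes, had 6.99, 8.21 and 8.75 in the high tumours and 5.79, 6.58 and 7.61 in the low tumours (difference 1.29, SE 0.260, adjusted p = 0.0416), and 6 of 9 high tumours were above every low one. Psmb9, a catalytic subunit of the immunoproteasome, had 8.08, 8.65 and 9.39 in the high tumours and 7.20, 7.86 and 8.19 in the low tumours (difference 0.84, SE 0.160, adjusted p = 0.0306). The class I heavy chain H2-D1 differed by 0.50 (adjusted p = 0.196) and Psmb8, the partner subunit of Psmb9, by 0.94 (adjusted p = 0.289), and neither passed.

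MHC class II presentation had 0 of 9 tested members past the test and a median of 0.53. All 9 were above 0, against 48.6% of all genes tested. Only 1, Ciita, had an unadjusted p under 0.05 (4.13% of all genes were higher at that level). That count was 7 with median scaling (7.67%) and 5 with the skeletal muscle marker level as a covariate (6.15%). It was 0 with the authors' values and with study group as a covariate. With detection on at least 15 of 30 tumours, which leaves Ciita out, it was also 0. The class II transactivator Ciita had 5.02, 5.78 and 7.09 in the high tumours and 4.87, 4.97 and 6.19 in the low tumours (difference 0.53). It was detected on 5 of 9 high arrays and 1 of 9 low arrays, and in all on 4 tumours outside the high group. Ciita met the limit of 5 detected tumours only through the high group, so its values and its place in the count above are a description. H2-DMa, which helps load peptide, had 7.78, 8.47 and 10.05 in the high tumours and 7.34, 7.96 and 9.23 in the low tumours (adjusted p = 0.651). Both sets of ranges overlapped widely.

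Among the nucleic acid sensors 1 of 11 tested members rose. Dhx58, the RIG-I-like helicase LGP2, had 7.02, 8.16 and 8.57 in the high tumours and 6.43, 7.19 and 7.42 in the low tumours (difference 0.95, SE 0.186, adjusted p = 0.0313). Cgas, the cytosolic DNA sensor, had 7.28, 7.88 and 8.15 in the high tumours and 6.67, 7.31 and 8.32 in the low tumours (difference 0.46, adjusted p = 0.624). Sting1, the adaptor downstream of Cgas, differed by 0.14 (adjusted p = 0.675). The median of the list, 0.17, was the third lowest of the 11.

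The ISG15 and ubiquitin pathway had 0 of 17 tested members past the test, with a median of 0.58. All 17 were above 0, against 48.6% of all genes tested. At an unadjusted p under 0.05, 12 were higher, against 4.13% of all genes. Usp18, which removes Isg15 and restrains the type I receptor, had 8.86, 9.87 and 10.36 in the high tumours and 7.18, 8.80 and 9.62 in the low tumours (difference 1.11, SE 0.255, adjusted p = 0.0960). Parp14, an ADP-ribosyltransferase, had 9.51, 10.40 and 10.92 in the high tumours and 9.33, 9.76 and 10.04 in the low tumours (difference 0.70, adjusted p = 0.101). In Parp14, 8 of 9 high tumours were above every low one. With array quality weights 5 of the 17 passed (0.404% of all genes) and with the score as a continuous term 3 (0.358%). Usp18 had an adjusted p of 0.0330 and 0.00258 in those fits (limma).

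The interferon-induced chemokines, which draw T cells and monocytes, had 0 of 7 tested members past the test and a median of 0.43. Cxcl9, an attractant of T cells that is induced by interferon gamma, had 7.43, 8.98 and 11.38 in the high tumours and 6.23, 6.98 and 8.91 in the low tumours. Its difference of 2.07 was the largest of the 117 tested interferon genes, with a wide spread (SE 0.514, adjusted p = 0.156). Ccl5 had 5.83, 7.42 and 8.17 in the high tumours and 5.87, 6.39 and 7.00 in the low tumours (difference 1.08, adjusted p = 0.0917).

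Feedback and checkpoint genes had 0 of 7 tested members past the test (median 0.36). Besides Usp18, which this list shares, Lgals9, a ligand of the receptor Havcr2, had 8.01, 8.84 and 9.25 in the high tumours and 7.99, 8.36 and 8.70 in the low tumours (difference 0.50, adjusted p = 0.329). Havcr2 differed by 0.36 (adjusted p = 0.624).

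Ligands were rarely detected and no receptor passed. Of 9 interferon ligands with a probe, 7 were detected on no tumour and 1 was tested, Ifna1, with 5.44, 5.97 and 6.44 in the high tumours and 5.51, 5.80 and 6.09 in the low tumours (difference 0.11, adjusted p = 0.790). Ifna1 was also detected on 6 of 6 cell arrays. Of 8 receptor chains and their kinases 0 passed, with a median of 0.05. Ifnar2 had 7.25, 7.72 and 8.34 in the high tumours and 7.02, 7.37 and 7.68 in the low tumours (difference 0.35, adjusted p = 0.620), and Ifngr1 had 9.68, 10.11 and 10.65 in the high tumours and 9.42, 9.80 and 10.33 in the low tumours (difference 0.27, adjusted p = 0.660).

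Over the 11 lists, 170 different genes were listed, 159 had a named probe and 117 were tested. Of those 117, 108 were above 0, against 48.6% of all genes tested. At an unadjusted p under 0.05, 62 were higher, against 4.13% of all genes, and 1 was lower. Of the 117, 4 were detected on fewer than 5 tumours outside the high group, Ciita among them, and 0 of the 19. Those 4 met the limit on detection only through the high group and are included in these counts.

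**Figure D3:**
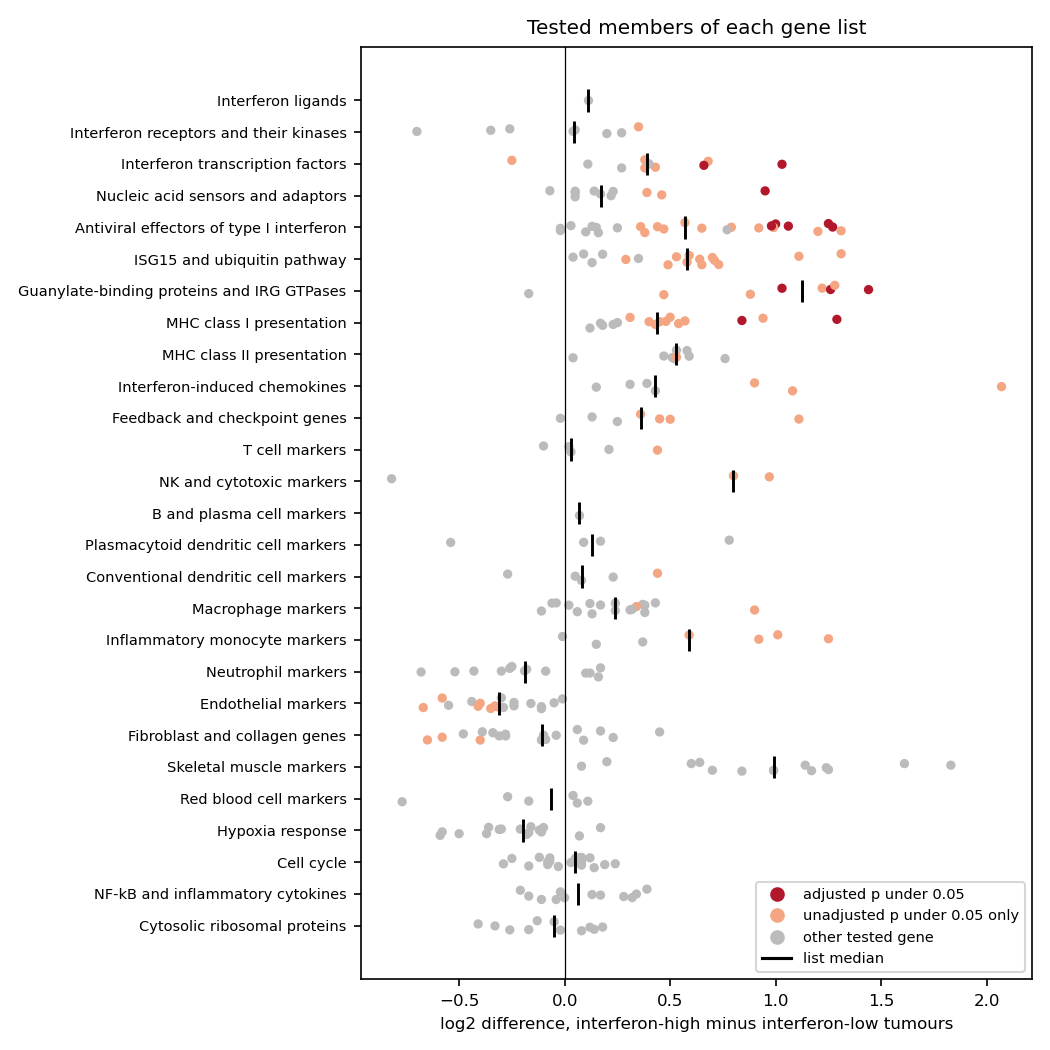
Log2 difference, interferon-high minus interferon-low tumours, of every tested member of each gene list, with the 11 interferon lists at the top. Black lines are list medians. Red points passed at an adjusted p under 0.05, orange points had an unadjusted p under 0.05 only, and grey points are the other tested genes. The largest interferon median, 1.13, is that of guanylate-binding proteins and IRG GTPases.

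The 6 genes outside the lists include the one with the smallest p. Phf11a, a PHD finger protein, had 6.43, 7.03 and 7.82 in the high tumours and 5.37, 5.64 and 6.54 in the low tumours, and 8 of 9 high tumours were above every low one (difference 1.28, SE 0.188, adjusted p = 0.0127). Gm4951, a gene known by a provisional name, had 5.50, 7.08 and 8.09 in the high tumours and 4.82, 5.34 and 6.11 in the low tumours, and was detected on 8 of 9 high and 2 of 9 low arrays (difference 1.59, SE 0.273, adjusted p = 0.0173). Apol9a, of the apolipoprotein L family, had 6.91, 7.98 and 8.32 in the high tumours and 6.07, 6.72 and 7.51 in the low tumours (difference 1.07, SE 0.195, adjusted p = 0.0230). Its relative Apol9b had 6.59, 7.16 and 7.63 in the high tumours and 5.57, 6.12 and 7.32 in the low tumours (difference 0.96, SE 0.187, adjusted p = 0.0313), and only 3 of 9 high tumours were above every low one.

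Cd69, an early activation antigen of lymphocytes that other leukocytes also carry, had 5.86, 6.43 and 7.46 in the high tumours and 4.82, 5.40 and 6.15 in the low tumours (difference 1.09, SE 0.203, adjusted p = 0.0272). A further detected Cd69 probe differed by only 0.02, so the change holds for 1 probe. Milr1, an inhibitory immunoglobulin-like receptor of mast cells and other myeloid cells, had 6.70, 7.49 and 7.78 in the high tumours and 6.46, 6.75 and 7.11 in the low tumours (difference 0.69, SE 0.132, adjusted p = 0.0306), and its further probe differed by 0.27. Among the 19 genes, 9 had further detected probes, 10 in all, and every one was above 0, up to 1.54 for Gbp3. Apol9a with Apol9b, Phf11a with Phf11d, and Oas1g with its Oas1 relatives are near-identical genes whose probes may share signal.

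Tumours and cells outside the comparison were described for the same 19 genes. In 19 of 19 the mean of the middle tumours lay between those of the high and the low tumours, against 40.4% of all genes tested, though the 19 had passed on the size of the difference. Of the 19, 14 were detected on no array of LLC cells, against 9.8% of all genes tested, and 2, Irf9 and Ifit3, were detected on all 6, against 74.5%. Over the 28 tumours the genes most like the score were Phf11a and Irf7 (Pearson r = 0.84 each) and Mx2 (0.83), a description since the score chose the tumours and shares the arrays.

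**Figure D4:**
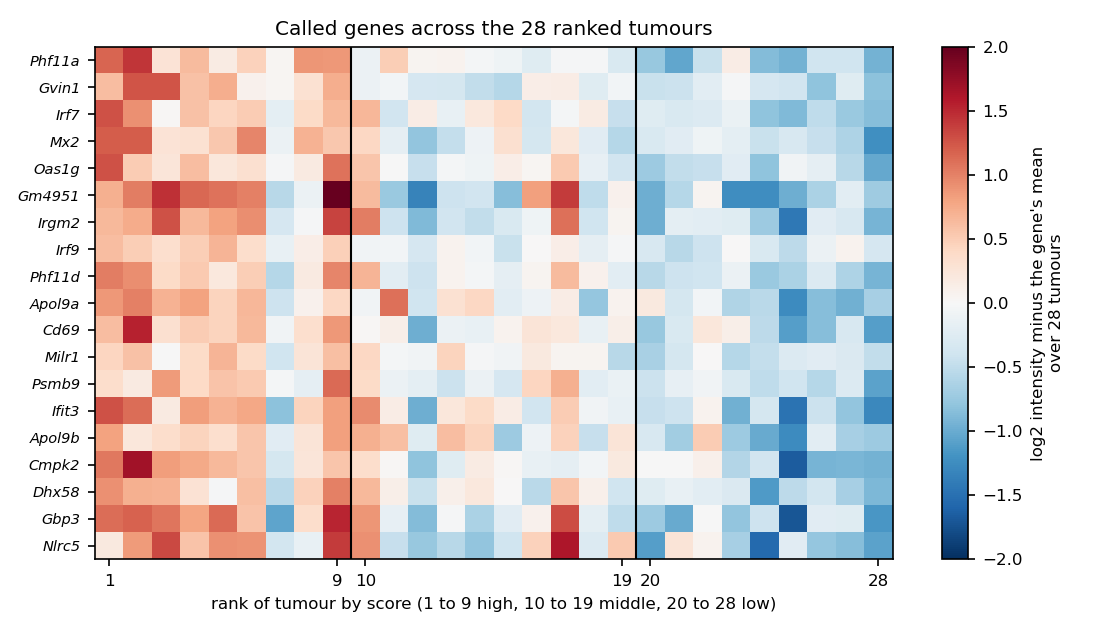
Each row is 1 of the 19 genes and each column 1 of the 28 ranked tumours, from rank 1 at the left to rank 28 at the right. Colour gives log2 intensity minus the gene's mean over the 28 tumours, and black lines part the high, middle and low tumours. The column of rank 7, young unirradiated replicate 8, is pale or blue among red columns.

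Young unirradiated replicate 8, the tumour of rank 7, stood apart within the high group. It was the lowest of the 9 high tumours in 18 of the 19 genes, and its mean over them was 7.25, against 7.82 to 8.51 in the other high tumours and 6.67 to 7.48 in the low tumours. It had the highest Rsad2 of the high group, as given above, and a skeletal muscle marker level of 11.48. At the other end, middle-aged unirradiated replicate 6 was the lowest of the low tumours in 6 of the 19 genes and young unirradiated replicate 2 in 7. Young unirradiated replicate 5, just outside the high group at rank 10, had a mean of 8.04.

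The 19 genes were also compared within the study's groups and in the 10 tumours between the groups. The 19 were called on the same tumours, so values within the study groups are a description only. In all 4 study groups the high tumours' mean was above the low tumours' mean in 19 of the 19 genes. The smallest of these differences was that of Nlrc5 in young irradiated tumours, 0.05, with 3 high tumours and 1 low. For Nlrc5 it was 2.00 in middle-aged unirradiated tumours, with 3 high and 2 low. Among the 10 middle tumours a slope on the score was fitted, and 0 of 10902 genes passed (limma; 479, 4.39%, at an unadjusted p under 0.05). The slope was above 0 in 14 of the 19 genes and in 64 of the 117 tested interferon genes, against 53.3% of all genes, and 0 of the 19 had an unadjusted p under 0.05. The interferon lists differed in this. The slope was above 0 in 20 of 25 antiviral effectors but in 4 of 16 MHC class I and 2 of 9 MHC class II members. These 10 scores ran only from 9.34 to 9.69.

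The study's own contrasts ask whether irradiation or host age goes with these genes. The contrasts share tumours with each other and with the high and low groups, and the score was not used in them. Over the 28 ranked tumours, which leave out the 2 dim arrays, the score averaged 9.49 ± 0.38 (SD, n = 5) in middle-aged irradiated, 9.48 ± 0.40 (SD, n = 7) in middle-aged unirradiated, 9.82 ± 0.44 (SD, n = 6) in young irradiated and 9.47 ± 0.30 (SD, n = 10) in young unirradiated tumours. In the limma fit over all 30 tumours no interferon gene passed: the smallest adjusted p of the 117 was 0.886 for irradiation in young mice, 0.742 for irradiation in middle-aged mice, 0.197 for age in unirradiated mice and 0.583 for age in irradiated mice. Over all genes 1 passed, Nbas (0.00917%), higher in middle-aged than young irradiated tumours by 0.76 (SE 0.13, adjusted p = 0.0434). In that contrast Nbas did not pass with the authors' values or without the 2 dim arrays.

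The interferon genes were also described by direction in each contrast. Middle-aged unirradiated tumours were above young unirradiated ones in 93 of 117 interferon genes, against 50.4% of all genes, and 13 of the 117 were higher at an unadjusted p under 0.05, against 5.69%, and 2 lower, against 8.08%. Gm4951 differed by 0.96 (SE 0.43, adjusted p = 0.323) and Irf9 by 0.39 (SE 0.15, adjusted p = 0.284) in that contrast. Gbp3 differed by 0.76 for age in unirradiated mice, by 0.41 for age in irradiated mice, by -0.55 for irradiation in middle-aged mice and by -0.19 for irradiation in young mice. Middle-aged irradiated tumours were above middle-aged unirradiated ones in 25 of the 117, against 50.7%. Young irradiated tumours were above young unirradiated ones in 60 of the 117, against 46.5%. Middle-aged irradiated tumours were above young irradiated ones in 63 of the 117, against 53.9%. At an unadjusted p under 0.05, irradiated middle-aged tumours had 0 interferon genes higher (3.8% of all genes) and 2 lower (2.53%), and irradiated young tumours 0 higher (1.86%) and 1 lower (3.67%). Among irradiated tumours, 6 interferon genes were higher in the middle-aged hosts (4.27% of all genes) and 2 lower (3.05%). None of these differences passed the adjusted test for any of the 19 genes.

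Host cell markers and other gene programmes were described with 16 further lists, and 0 genes passed in any of them. Members did pass in some alternative fits, among them 2 inflammatory monocyte markers, 1 macrophage marker and 1 natural killer marker with median scaling (0.294% of all genes) and with array quality weights (0.404%), and 3, 1 and 1 of these with the score as a continuous term (0.358%). Most host cell markers were detected: 18 of 18 macrophage markers with a probe, 18 of 19 endothelial markers and 20 of 22 fibroblast and collagen genes were detected widely enough to be tested. Smaller shares were tested for T cells, with 5 of 12, natural killer and cytotoxic cells, with 3 of 12, B and plasma cells, with 1 of 6, and conventional dendritic cells, with 5 of 13. Plasmacytoid dendritic cells had 4 of 7. Some tested members were detected on fewer than 5 tumours outside the high group and met the limit only through it. They were 1 T cell marker, 1 conventional dendritic cell marker, 1 fibroblast or collagen gene and 3 skeletal muscle markers, included in the counts below.

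Inflammatory monocyte markers were mostly above 0, with 6 of 7 members (48.6% of all genes) and a median of 0.59. At an unadjusted p under 0.05, 4 were higher, against 4.13% of all genes. The median was 0.33 with array brightness as a covariate, 0.35 with 14 tumours a group and 0.72 with median scaling. The mean level of the list ran from 8.69 to 9.79 in the high tumours and from 8.24 to 9.40 in the low tumours. Fcgr4, an activating Fc receptor of monocytes and macrophages, had 10.02, 10.50 and 11.50 in the high tumours and 8.84, 9.55 and 10.50 in the low tumours (difference 0.92, adjusted p = 0.0945). Plac8 differed by 1.25 (adjusted p = 0.101) and Ccr2, the receptor by which monocytes leave the marrow, by 1.01 (adjusted p = 0.108). With median scaling Fcgr4 had an adjusted p of 0.0108 and Plac8 of 0.0227. Without young unirradiated replicate 8 the adjusted p was 0.0459 for Fcgr4, 0.0425 for Plac8 and 0.0486 for Ccr2. Whether monocyte number has a part in the result was not tested.

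Macrophage markers had 15 of 18 above 0 with a median of 0.24, and levels from 9.49 to 10.52 in the high tumours and from 9.11 to 10.09 in the low tumours. In the 10 middle tumours this list ran the other way, with slopes on the score above 0 in 1 of 18, against 53.3% of all genes. The median slope was -0.97, and 1 slope had an unadjusted p under 0.05 (limma). The leading macrophage gene, Fcgr1, a high-affinity Fc receptor that interferon gamma induces, differed by 0.90 (adjusted p = 0.156). Of 3 tested natural killer and cytotoxic markers, Klrd1, a receptor chain, differed by 0.97 (adjusted p = 0.110) and Nkg7, a cytotoxic granule protein, by 0.80 (adjusted p = 0.292), while Prf1, the pore-forming protein perforin, differed by -0.82 (SE 0.407, adjusted p = 0.651). Of 5 tested T cell markers, 1 of which met the detection limit only through the high group, 4 were above 0 with a median of 0.03. The median was -0.04 with the authors' values and -0.03 with detection on at least 15 of 30 tumours. Cd3g, a chain of the T cell receptor complex, differed by 0.44 (adjusted p = 0.624).

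Vessel genes were below 0. All 18 tested endothelial markers were below 0 with a median of -0.31, where 48.6% of all genes were above 0. At an unadjusted p under 0.05, 7 were lower, against 3.52% of all genes. That count was 1 with array brightness as a covariate (median -0.26). It was 3 with study group as a covariate (median -0.27) and 3 without the 2 brightest arrays (median -0.30). Levels ran from 7.72 to 8.51 in the high tumours and from 7.99 to 8.93 in the low tumours. Sox18, an endothelial transcription factor, had 6.32, 7.07 and 7.83 in the high tumours and 7.14, 7.68 and 9.20 in the low tumours (difference -0.67, SE 0.242, adjusted p = 0.570). Plvap, which forms the diaphragms of fenestrated vessels, differed by -0.58 (adjusted p = 0.624). With 14 tumours a group the median was -0.08 and none had an unadjusted p under 0.05. In the 10 middle tumours the list ran the other way, with slopes on the score above 0 in 16 of 18, against 53.3% of all genes, and 6 at an unadjusted p under 0.05, against 4.39%, though no gene passed the adjusted test there. The slope of Plvap was 2.04 log2 units per unit of score (SE 0.86) and that of Robo4, an endothelial guidance receptor, 2.33 (SE 0.63). With median scaling in place of quantile normalization 4 of the 18 were above 0 and 2 had an unadjusted p under 0.05, while the median of all genes moved to 0.14.

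Fibroblast and collagen genes had 15 of 20 below 0 and a median of -0.11, which was 0.08 with array brightness as a covariate and 0.04 with array quality weights. Pdgfrb, a receptor of pericytes and fibroblasts, differed by -0.58 (adjusted p = 0.292) and Col5a1, a collagen chain, by -0.40 (adjusted p = 0.249). Col5a1 is not particular to host cells here. It was detected on 6 of 6 LLC cell arrays at a mean of 12.05, against 12.1 in the high and 12.51 in the low tumours. Hypoxia response genes had 14 of 16 below 0 and a median of -0.19, while 13 of 16 had slopes above 0 in the middle tumours. The lower genes with the smallest p, chosen after their values were seen, were Chst11, a chondroitin sulfotransferase, at -0.41 (SE 0.088, adjusted p = 0.0679), Col5a1, and Plxnd1, a semaphorin receptor of endothelium, at -0.35 (adjusted p = 0.251).

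Skeletal muscle markers varied more between tumours than any other list. All 14 tested were above 0 with a median of 0.99, though 3 of the 14 were detected on fewer than 5 tumours outside the high group, and the level ran from 5.48 to 11.48 in the high tumours and from 5.35 to 11.55 in the low tumours. It was above 11 in young irradiated replicate 1 and young unirradiated replicate 8 among the high tumours and in young unirradiated replicate 7 among the low tumours. With that level as a covariate 38 genes passed, the 19 among them.

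**Figure D5:**
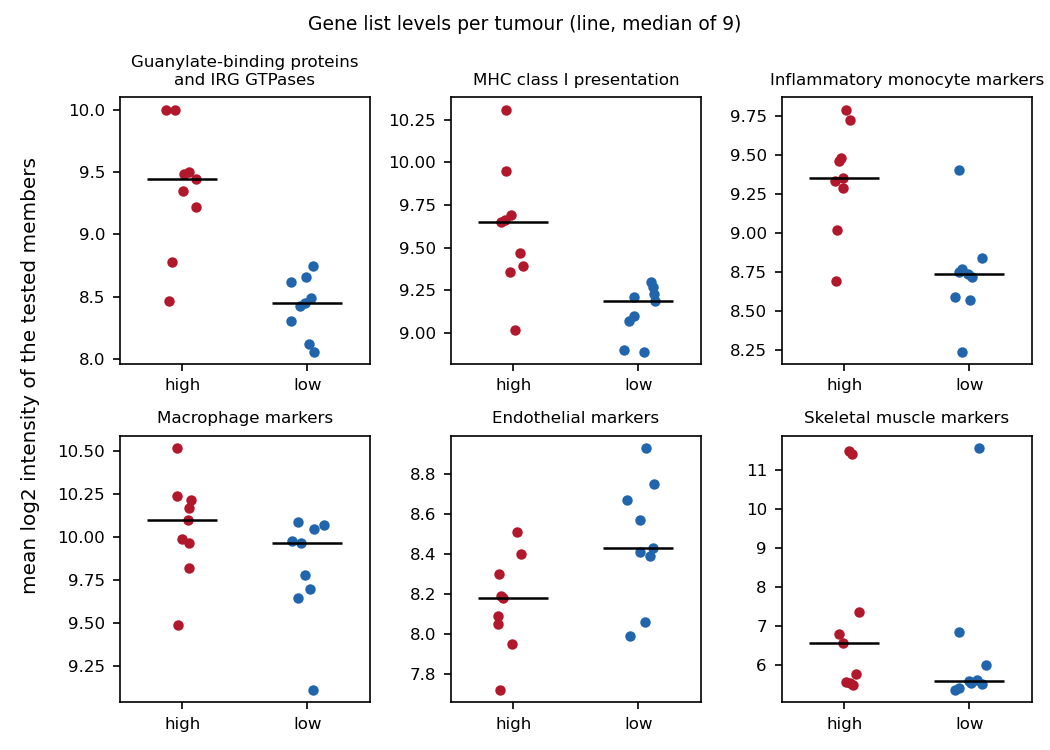
Mean log2 intensity of the tested members of 6 lists per tumour, with 9 interferon-high tumours (red) left of 9 interferon-low tumours (blue) and a line at each median. Vertical axes differ between panels. Guanylate-binding proteins and IRG GTPases had medians of 9.44 in the high and 8.45 in the low tumours, and endothelial markers 8.18 in the high and 8.43 in the low tumours.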

How the data were processed

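Illumina Mouse WG-6 beadchips gave the transcript levels. The authors deposited an unnormalized intensity and a detection p-value per probe, made in GenomeStudio per the submitters' processing notes, version not given in the sources used here. They also deposited a normalized intensity, called rank variant normalization in the series text, a name that leaves scale and centring unstated, with column medians from 134 to 183. Its log2, floored at 64, gave the score.

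The neqc function of limma 3.58.1 in R 4.3.3 corrected background (offset 16) and quantile normalized the 36 arrays together, giving log2 values. The brightest probe stood for its gene. Of 45281 probes 34885 had 1 gene symbol, 18 several and 10378 none here. Genes detected (p under 0.05) on at least 5 of 30 tumours, without the 5 score genes, were tested with lmFit and eBayes, and p was adjusted by Benjamini-Hochberg over 10902 genes. For dim genes the log2 difference understates the change, since values near background are compressed. The number of arrays limits the precision.

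The grouping, members and 27 lists were chosen with earlier results of these data known. Named genes are the genes that passed, up to 4 members with the smallest p of each described list, and the 3 most like the score. How many members were named in the lists of host cells was limited after values were seen. Simulated data served to test the fits. Alternatives covered values, scaling, filters, covariates, array weights, group size and single tumours left out.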

Additional observations from a re-analysis of the deposited data

Results flagged for a closer look

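Among 96 sets of 9 values, each a gene or a list level in the high or the low tumours, 7 held a tumour far from the other 8, where chance gives about 1 in 20. Among the high tumours, young unirradiated replicate 8 had the lowest Gbp3, at 7.31 with the next at 8.71. The same tumour had the highest level of interferon receptors and their kinases, at 8.50 with the next at 8.25. Among the low tumours, middle-aged unirradiated replicate 6 had the lowest Mx2, at 5.13 with the next at 5.75, and the lowest level of macrophage markers, at 9.11 with the next at 9.65. Young unirradiated replicate 2 had the highest level of T cell markers, at 7.44 with the next at 7.18, and of fibroblast and collagen genes, at 10.88 with the next at 9.81. Young unirradiated replicate 7 had the highest level of skeletal muscle markers, at 11.55 with the next at 6.85.

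The 2 dim arrays, which were not ranked, also carried the score genes above the level of LLC cells. Young irradiated replicate 6 scored 9.43 and young irradiated replicate 8 scored 9.20, against at most 7.66 on the 6 cell arrays.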

How the results depend on the processing

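The count of 19 genes, 13 of them in the interferon lists, was 32 genes with median scaling, 9 and 7 with no filter on detection, 44 and 22 with array quality weights, 39 and 21 with the score as a continuous term over 28 tumours, 1 and 0 with 14 tumours a group, and 0 and 0 with study group as a covariate, with array brightness as a covariate or with 7 tumours a group. Of the alternatives chosen after seeing the data, dropping the 2 brightest arrays gave 1 and 0, and muscle level as a covariate gave 38 and 20. Leaving out each tumour in turn gave 6 to 64 genes and 4 to 30 interferon-list genes. The other alternatives, the authors' values among them, gave 16 to 21 genes. All 19 genes stayed above 0 in each of these 17 alternatives and without each tumour, a description since they had passed on largely the same tumours. Study contrasts gave 1 gene, Nbas, for age in irradiated mice, and it passed in neither alternative for that contrast. With the authors' values 1 gene passed for age in unirradiated mice (Zmpste24) and 3 for age in irradiated mice (Akr1b10, Gatad1 and Hmgn5). Without the 2 dim arrays 29 genes passed for age in unirradiated mice, where 0 passed in the fit reported here. None of the genes from these alternatives was in the interferon lists. The cause of these changes was not tested. Signal over background limits the ligands, T cell and B cell lists, of which few members were detected. No paired analysis was possible because the high and low tumours come from 4 study groups whose replicate numbers mark no shared animal, litter or day.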

Other observations

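Neutrophil markers and inflammatory cytokines had no settled direction. Of 13 tested neutrophil markers 9 were below 0 with a median of -0.19, and list levels ran from 6.33 to 8.37 in the high tumours and from 6.76 to 8.70 in the low tumours. Of 12 tested NF-kB and inflammatory cytokine genes 7 were above 0 with a median of 0.07. In 8 of 13 neutrophil markers the slope was above 0 with the score as a continuous term over 28 tumours, and 10 of 13 were above 0 with 7 tumours a group (median 0.21) and 8 of 13 with study group as a covariate (median 0.17). Among the 10 middle tumours, slopes on the score were above 0 in 13 of 13 neutrophil markers and 11 of 12 NF-kB and inflammatory cytokine genes, against 53.3% of all genes. Cell cycle genes had a median of 0.05, with 12 of 21 above 0, and cytosolic ribosomal protein genes a median of -0.05. Between the high and low tumours no gene of these lists had an unadjusted p under 0.05 in either direction, where 7.65% of all genes tested did, and none passed the adjusted limma test. Red blood cell markers had a median of -0.06, conventional dendritic cell markers 0.08 (5 tested), and B and plasma cell markers 0.07 from 1 tested gene. Of 4 tested plasmacytoid dendritic cell markers, cells known as strong producers of type I interferon, 3 were above 0 with a median of 0.13. Siglech, a receptor of those cells, had 5.03, 5.70 and 7.32 as lowest, median and highest log2 intensity in the high tumours and 5.18, 6.59 and 9.52 in the low tumours, a difference of -0.54 that did not pass (adjusted p = 0.731).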
